A study of Danio rerio with 9 samples.

Results

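The Iroquois genes encode homeodomain transcription factors of the TALE class, whose homeodomain carries an extra loop of amino acids. The 6 genes described here are *irx1a*, *irx1b*, *irx2a*, *irx3a*, *irx5a* and *irx7*, out of 20847 genes in the deposited table that sets cardiac crest beside trunk crest and 31953 in the count table. They were chosen by name from the first of these tables with their values in view, so their difference between cardiac and trunk crest is given as a description with no test. The count table held 5 further Iroquois genes, and 3 of them (*irx3b*, *irx4b* and *irx5b*) are in both tables, which makes 9 Iroquois genes with values in all libraries.

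In vertebrates, most Iroquois genes lie in clusters, one holding Irx1, Irx2 and Irx4 and the other Irx3, Irx5 and Irx6, and teleost fish carry extra copies from a whole-genome duplication. They divide the early embryo into territories, above all in the neural plate, and act mostly as repressors. In zebrafish, *irx1b* and *irx7* are known from the midbrain-hindbrain boundary and the anterior hindbrain, *irx7* and *irx5a* from keeping joint cartilage of the face immature, and *irx3b* from the pronephros. In mouse, Irx3 and Irx5 shape the ventricular conduction system and repolarisation, and in mouse and chick Irx4 marks ventricular heart muscle.

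RNA was measured in 9 libraries of sorted zebrafish cells, 3 in each of 3 groups. Cardiac neural crest was the mCherry-positive fraction of a region that ran back to somite 6, starting at the midbrain-hindbrain boundary, at the 16-somite stage (17 hpf). The embryos carried the transgene -4.9sox10:GAL4-UAS-cre together with UAS:NfsB-mCherry and with myl7:nucGFP, so GAL4 under *sox10* sequence switches on both Cre and the mCherry reporter. Non-crest libraries held the mCherry-negative cells of that same line, age and tissue. Trunk neural crest was sorted as GFP-positive cells at 24 hpf from somites 7 to 16 of Tg(-4.9sox10:eGFP) embryos, so cardiac and trunk crest differ at once in age, line, reporter and axial level, and these cannot be told apart. Both lines rest on a fragment of the *sox10* promoter, which is known to drive expression in the otic placode as well as in crest, and the mCherry-negative gate takes every other cell type of the dissected region. Whether replicate libraries stem from different embryos is not stated in the labels. The p-values therefore rest on library-to-library spread that could be technical.

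Depth and identity of the libraries were as follows. Totals in the count table ran from 34062539 to 45172404 reads over the cardiac crest and non-crest libraries, and 25128422 to 29842884 reads were recovered per trunk crest library. Levels are given as CPM (counts scaled to the total of the count table, counts-per-million) or as RPM (the same over the genes listed in both tables). *sox10*, which marks crest, stood at 363, 445 and 244 CPM in cardiac crest, against 27.6, 26.8 and 8.92 CPM in non-crest (log2 difference 4.12 ± 0.47, SE; edgeR quasi-likelihood test, Benjamini-Hochberg adjusted p = 0.00555). In trunk crest it stood at 729, 681 and 697 RPM. The sorting reporter rests on a *sox10* promoter fragment, so the gate itself favours this difference. Of 14 tested core crest genes, *sox10* among them, 2 were higher than in non-crest, 0 were lower and 12 did not pass (edgeR). DESeq2 called 5 of them higher and 0 lower. Over all genes edgeR called 1.50% and DESeq2 5.51%. The median log2 fold change of the tested genes of the list was 1.26, beside -0.04 over all genes. Of the listed crest genes, *crestin* was not found by name. The gene model named FOXD3 was too low to test, with 0, 0 and 0 CPM in cardiac crest, against 0, 0 and 0.0221 CPM in non-crest. Other listed models, such as SOX2, SOX3, *hoxb1a* and *hoxa2b*, held 0 CPM in every cardiac crest and non-crest library. Whether such values reflect the gene models or the cells was not tested, so they do not show that a gene is silent. Replicate 3 of cardiac crest stood apart, with 9676 RPM over 12 muscle markers against 33.4 and 41.4 in replicates 1 and 2. Most of the 9676 came from 1 gene, *actc1b*, at 4.54, 13.8 and 7953 CPM. *tnnt3a* (0.828, 1.85 and 0.917 CPM) and *tnni2a.4* (0.0895, 0.0587 and 0.0496 CPM) did not rise in replicate 3. The other muscle markers were each highest in it. Replicate 3 of non-crest also stood apart, with correlations of 0.869 and 0.859 to its group across genes against 0.919 between the others. The values of the Iroquois genes against non-crest are given with and without replicate 3 of both groups.

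The members lie on 4 chromosomes of GRCz10, in the coordinates of the count table. On chromosome 16, *irx2a* (539456 to 544003, minus strand) and *irx1a* (737662 to 741827, plus strand) are 194 kb apart with no gene model between them. On chromosome 7, *irx5a* (35435288 to 35438786, minus strand) and *irx3a* (35770017 to 35773362, plus strand) are 331 kb apart, again with none between. *irx1b* lies on chromosome 19 (28543431 to 28546443, minus strand) and *irx4b* 125 kb beyond it (28671853 to 28677753, plus strand), with 1 5S rRNA model between them. *irx7* stands alone on chromosome 23 (37884208 to 37885532, plus strand). Reads were counted over whole gene bodies, introns included, and no base of the 6 gene models is shared with another gene model. How reads that match more than 1 copy of a duplicated gene were treated is not given in the sources used here, so values of close copies such as *irx1a* and *irx1b* are uncertain to that extent.

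All 6 genes were read in cardiac crest and, apart from *irx2a* in 1 library, in the non-crest cells around it, while trunk crest held few or no reads of any of them. Per kilobase of gene model, the mean level in cardiac crest was highest for *irx3a* (25.4 ± 19.6 RPM per kb, SD, n = 3), *irx7* (22.2 ± 10.2) and *irx1b* (14.7 ± 6.86), whose libraries overlapped. *irx5a* followed at 4.57 ± 1.98, then *irx1a* at 1.93 ± 0.538 and *irx2a* at 0.776 ± 0.635. *irx1b* and *irx5a* did not overlap the member next below them, and *irx1a* and *irx2a* overlapped. In non-crest the order was *irx3a* (52.3 ± 17.4), *irx1b* (23.7 ± 8.1), *irx7* (19.3 ± 2.75), *irx5a* (9.51 ± 1.78), *irx1a* (3.49 ± 1.08) and *irx2a* (0.365 ± 0.316), and *irx1b* and *irx7* were the single pair of neighbours in it whose libraries overlapped. The order depends on the division by gene model length. Before it, the cardiac crest mean of *irx1b* (44.3 ± 20.7 RPM) was above that of *irx7* (29.4 ± 13.5 RPM). The tables were normalised separately, and RPM sets their levels side by side.

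**Figure D1:**
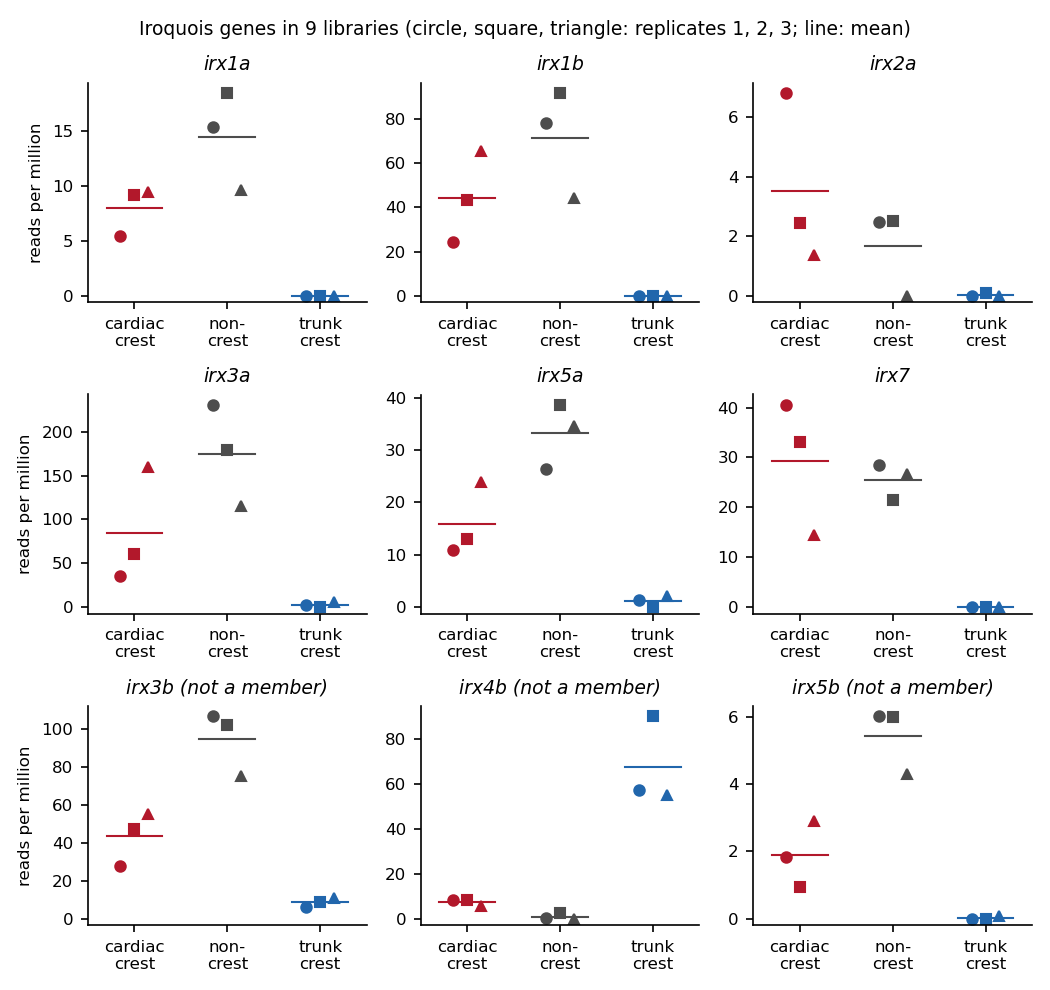
Levels in RPM of the 6 Iroquois genes and of irx3b, irx4b and irx5b in each library, with circles, squares and triangles for replicates 1, 2 and 3 and a line for the group mean; each panel has its own linear axis. The members are near or at 0 in trunk crest, whereas irx4b is highest there, at 54.9 to 90.1 RPM.

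The first question the design allows is whether cardiac crest differs from the other cells of the same tissue. None of the 6 members passed the test against non-crest (edgeR quasi-likelihood test, 0 of 6 at adjusted p below 0.05), when 1.50% of the 19648 genes tested did. At an unadjusted p below 0.05 the count was 1 of 6 by edgeR, where 10.8% of all genes passed, and 2 of 6 by DESeq2, where 11.9% did. DESeq2 also called 0 of 6 after adjustment, against 5.51% of its genes. Among the members, 4 had a negative and 2 a positive log2 fold change, with a median of -0.73 beside -0.04 over all genes tested. Without replicate 3 of both groups the members' median was -1.20, beside -0.04 over all genes, and 1 of 6 was called. In bulk samples, fewer cells with a transcript and less of it per cell cannot be told apart. A p that misses the threshold does not show that levels are alike.

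*irx3a*, one of the genes at the core of the second cluster, had 35.4, 60.2 and 159 CPM in cardiac crest, against 229, 175 and 113 CPM in non-crest. The groups overlapped through replicate 3 of each, the highest of cardiac crest and the lowest of non-crest. The log2 difference came to -1.0 ± 0.52 (SE, n = 3 each, edgeR adjusted p = 0.555). Without replicate 3 of both groups it was -2.03 with an edgeR adjusted p of 0.0219, the one call among the members in any setting, where 3.75% of all genes were called. That setting was chosen after seeing the data. The summed muscle markers moved with it: 33.4, 41.4 and 9676 RPM in cardiac crest, against 12434, 12452 and 7755 in non-crest. Their part in the result was not tested.

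*irx5a*, the neighbour of *irx3a*, had 11.0, 13.0 and 23.7 CPM in cardiac crest, against 26.2, 37.9 and 34.3 CPM in non-crest. Every cardiac crest library lay below every non-crest library, as did 8.26% of all genes tested. The log2 difference of -1.06 ± 0.41 had an unadjusted p of 0.0321 and did not pass after adjustment (edgeR adjusted p = 0.384). It was -1.35 without replicate 3 of both groups (edgeR adjusted p = 0.135).

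*irx1b*, which acts with *irx7* in the zebrafish hindbrain, had 24.2, 43.2 and 65.1 CPM in cardiac crest, against 77.5, 89.9 and 43.8 CPM in non-crest. The groups overlapped, with the lowest non-crest library again replicate 3 (log2 difference -0.65 ± 0.39, edgeR adjusted p = 0.632). Its duplicate *irx1a* had 5.46, 9.16 and 9.44 CPM in cardiac crest, against 15.3, 18.2 and 9.54 CPM in non-crest. Every cardiac crest library of *irx1a* lay below every non-crest one, as for 8.26% of all genes tested. The gap between the nearest was small (log2 difference -0.82 ± 0.42, edgeR adjusted p = 0.542). The differences without replicate 3 of both groups were -1.26 for *irx1b* and -1.14 for *irx1a* (edgeR adjusted p = 0.114 and 0.28).

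*irx7*, a divergent Iroquois gene of fishes, had 40.5, 33.1 and 14.3 CPM in cardiac crest, against 28.3, 21.1 and 26.3 CPM in non-crest. Cardiac crest held both the highest and the lowest library of the 6. The log2 difference came to 0.23 ± 0.45 (edgeR adjusted p = 0.91), but it was -0.19 when cardiac crest replicate 1 was left out and 0.66 when replicate 3 of both groups was. *irx2a*, the least abundant member, had 6.81, 2.44 and 1.34 CPM in cardiac crest, against 2.44, 2.47 and 0 CPM in non-crest. Those levels are 304, 83 and 54 reads in cardiac crest, against 87, 90 and 0 reads in non-crest. The log2 difference of 1.27 ± 1.40 was smaller than its error (edgeR adjusted p = 0.817). It was 0.22 without cardiac crest replicate 1, 0.63 without non-crest replicate 3 and 1.02 without replicate 3 of both groups, so single libraries carry much of it.

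**Figure D2:**
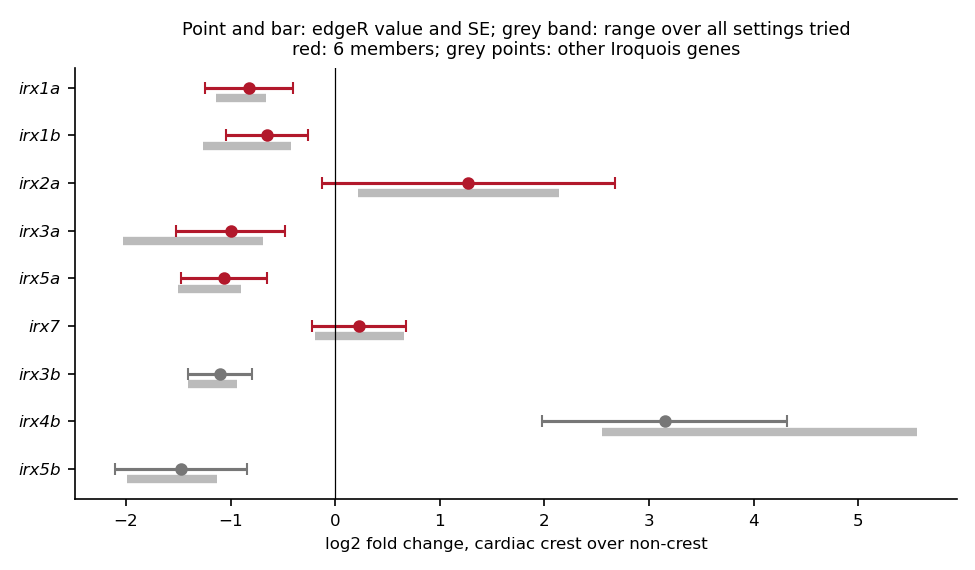
Log2 fold change of cardiac crest over non-crest for the 6 Iroquois genes (red) and irx3b, irx4b and irx5b (grey), as the edgeR value with its SE; grey bands span all settings tried. irx1a, irx1b, irx3a and irx5a lie below 0 in every setting, whereas irx7 spans 0, from -0.19 to 0.66.

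The Iroquois genes outside the set had log2 differences of similar or larger size. For *irx3b*, every cardiac crest library lay below every non-crest one, as for 8.26% of all genes tested. It had 27.9, 47.3 and 54.8 CPM in cardiac crest, against 107, 100.1 and 74.4 CPM in non-crest (log2 difference -1.10 ± 0.31, edgeR adjusted p = 0.189). Its gene model in the files is 204665 bases long, against 4627 bases for *irx3b* in the RefSeq annotation of GRCz12tu, so reads from the rest of that interval are counted with it. *irx5b* had 1.84, 0.939 and 2.88 CPM in cardiac crest, against 5.97, 5.88 and 4.23 CPM in non-crest (log2 difference -1.47 ± 0.63, edgeR adjusted p = 0.446). Its groups did not overlap either. Leaving out replicate 3 of both groups gave -1.41 for *irx3b* and -1.99 for *irx5b* (edgeR adjusted p = 0.0661 and 0.215).

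*irx4b*, a copy of the ventricular gene Irx4, had a difference of the other sign. It had 8.51, 8.16 and 5.55 CPM in cardiac crest, against 0.28, 2.36 and 0.0443 CPM in non-crest. Every cardiac crest library lay above every non-crest one, as for 8.76% of all genes tested. The log2 difference of 3.15 ± 1.17 did not pass by edgeR (adjusted p = 0.356), whereas DESeq2 called it (adjusted p = 0.0469). The difference was 5.56 without non-crest replicate 2, the non-crest library with the most *irx4b*, and 2.72 without replicate 3 of both groups (edgeR adjusted p = 0.0678 and 0.241). Of the 3 genes *irx3b*, *irx5b* and *irx4b*, 0 passed by edgeR and 3 had an unadjusted edgeR p below 0.05. Over all genes, 1.50% passed by edgeR and 10.8% had such an unadjusted p. DESeq2 called 1 of the 3, *irx4b*, where it called 5.51% of its genes. A gene model named IRX4 on chromosome 16 held 0, 9 and 2 reads in cardiac crest, against 0, 30 and 1 in non-crest, and was too low to test. A model named IRX6 on chromosome 7 held 0 reads in these libraries and lies wholly within another gene model.

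The make-up of the Iroquois pool also varied between cardiac crest libraries. Of the summed RPM per kb of the 6 members, *irx7* made up 55.5%, 39.1% and 12.1% in cardiac crest, against 16.8%, 14% and 24.7% in non-crest. *irx3a* made up 19.2%, 28.2% and 53.1% in cardiac crest, against 53.8%, 46.0% and 42.1% in non-crest. These lengths are of gene models with introns, and the short model of *irx7* (1325 bases) raises its share. Of the undivided reads of all 9 Iroquois genes, *irx7* made up 25.1%, 15.2% and 4.27% in cardiac crest. In non-crest it made up 5.76%, 4.65% and 8.59% of them. Cardiac crest replicates 1 and 2 thus held more *irx7* and less *irx3a* in their pool than any non-crest library, and replicate 3 held less *irx7* than any. The ratio of *irx1b* to *irx7* reads, which does not depend on depth, was 0.597, 1.31 and 4.54 in cardiac crest, against 2.74, 4.27 and 1.67 in non-crest. Replicate 3 of cardiac crest is the library with the high muscle markers, and the part of that difference in its make-up was not tested. The members summed to 123, 161 and 274 RPM in cardiac crest, against 382, 352 and 229.9 in non-crest.

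**Figure D3:**
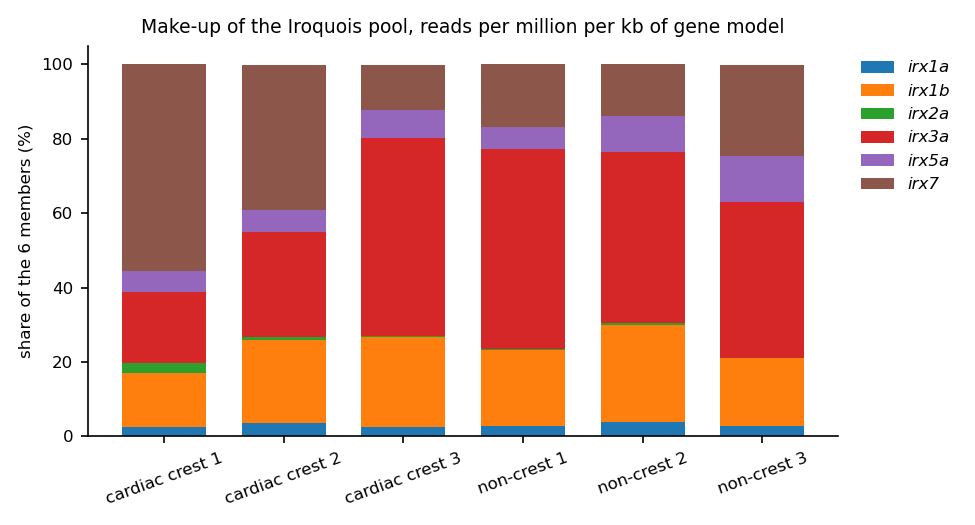
Share of each Iroquois gene in the summed RPM per kb of the 6, for the 3 cardiac crest and 3 non-crest libraries. The irx7 share is 55.5% and 39.1% in cardiac crest replicates 1 and 2, 12.1% in replicate 3, and 14% to 24.7% in non-crest.

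Against trunk crest the members were chosen for their difference, and what follows describes it. For each of the 6, all cardiac crest libraries lay above all trunk crest libraries, which follows from the choice of genes and is not a result. The share of all genes without overlap is not given here, and the shares that follow are of limma calls. Over the whole table, 10.7% of the 20847 genes were higher in cardiac crest and 12.5% lower by limma (log2 of the scaled reads plus 1, adjusted p below 0.05). Muscle markers also differed between these libraries, with 33.4, 41.4 and 9676 RPM in cardiac crest, against 23957, 6029 and 8554 in trunk crest, and their part was not tested.

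*irx1a*, *irx1b* and *irx7* had 0 reads in all 3 trunk crest libraries. *irx1b* had 757, 1133 and 1891 size-factor-scaled reads in cardiac crest, against 0, 0 and 0 in trunk crest, which makes it at least 960.0-fold higher when the floor is 3 reads over the trunk group. *irx7* had 1268, 866 and 416 scaled reads in cardiac crest, against 0, 0 and 0 in trunk crest, at least 651-fold higher. *irx1a* had 171, 240.0 and 274 scaled reads in cardiac crest, against 0, 0 and 0 in trunk crest, at least 174-fold higher.

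*irx2a* had 213, 63.9 and 38.9 scaled reads in cardiac crest, against 0, 2.67 and 0 in trunk crest. The trunk value is 2 reads in 1 library. The ratio of pooled reads over summed size factors was 123, with a 95% counting interval of 33.7 to 1015. Reads from this amplification carry no molecular identifiers, so the interval and the floors cover counting error only.

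*irx3a* and *irx5a* were read in trunk crest replicates 1 and 3 and not in replicate 2. *irx3a* had 1108, 1579 and 4604 scaled reads in cardiac crest, against 79.3, 0 and 193 in trunk crest, from 67, 0 and 134 trunk reads. *irx5a* had 344, 342 and 689.7 scaled reads in cardiac crest, against 47.3, 0 and 76.4 in trunk crest, from 40, 0 and 53 trunk reads. The neighbouring genes were thus present together in the same trunk libraries and absent together from the third. The ratio of group means was 26.8 for *irx3a* and 11.1 for *irx5a*. On the log2(value + 1) scale the difference for *irx3a* was 6.33 ± 1.81 and 4.01 without trunk crest replicate 2, and for *irx5a* it was 4.80 ± 1.43 and 2.83 without that library. With cardiac crest replicate 3 left out as well, the differences were 3.41 and 2.49. Genes at 0 in that library alone with at least 40 reads in each of the others numbered 17 of 20847, beside 9 for the same pattern in replicate 1 and 40 in replicate 3. The cutoff of 40 reads was taken from *irx5a* itself. *irx3a* and *irx5a* are therefore among the 17 by construction, and the count is a description and no test.

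The 3 other Iroquois genes differed among themselves in this contrast. *irx4b* had 266, 214 and 161 scaled reads in cardiac crest, against 2021, 3324 and 1987 in trunk crest, where its mean was 11.4-fold higher (log2 difference -3.50 ± 0.32, limma adjusted p = 1.73e-04). Per kb of gene model *irx4b* stood at 11.4 ± 3.33 RPM in trunk crest, beside 0.755 ± 0.8 for *irx3a*. The place of *irx3b* on that scale rests on its long gene model: before division by length it had 8.54 ± 2.5 RPM in trunk crest, beside 67.4 ± 19.7 for *irx4b* and 2.53 ± 2.68 for *irx3a*. *irx3b* had 873, 1239 and 1592 scaled reads in cardiac crest, against 208, 327 and 393 in trunk crest (log2 difference 2.00 ± 0.35, limma adjusted p = 0.00428). *irx5b* had 57.4, 24.6 and 83.5 scaled reads in cardiac crest, against 0, 0 and 2.88 in trunk crest. Its ratio of pooled reads over summed size factors was 63.9, with a 95% counting interval of 17.5 to 531.

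The contrast between *irx1b* and *irx4b* falls within 1 cluster. The ratio of *irx4b* to *irx1b* reads was 0.352, 0.189 and 0.0853 in cardiac crest, against 0.00362, 0.0263 and 0.00101 in non-crest, and in trunk crest *irx1b* had no reads to divide by. The non-crest ratios rest on only 10, 86 and 2 *irx4b* reads. The genes flanking the pair, *med10* (a Mediator subunit) and *ndufs6* (a respiratory complex I subunit), were lower in cardiac than in trunk crest by far less than *irx4b* was. Their log2 differences were -0.94 ± 0.22 (limma adjusted p = 0.0149) for *med10* and -0.93 ± 0.24 (limma adjusted p = 0.0228) for *ndufs6*. The gene next to *med10*, *ube2ql1*, 161 kb from *irx1b*, was higher in cardiac crest, as *irx1b* was (3.89 ± 1.14, limma adjusted p = 0.0385). Beside *irx3a*, the demethylase gene *fto* 66.5 kb away differed by 0.15 ± 0.37 on the log2 scale between cardiac and trunk crest (limma adjusted p = 0.81). *sowah1* and *cd40*, 26.2 and 6.59 kb from *irx7*, differed by 0.84 ± 0.53 and -0.04 ± 0.59 (limma adjusted p = 0.283 and 0.965).

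**Figure D4:**
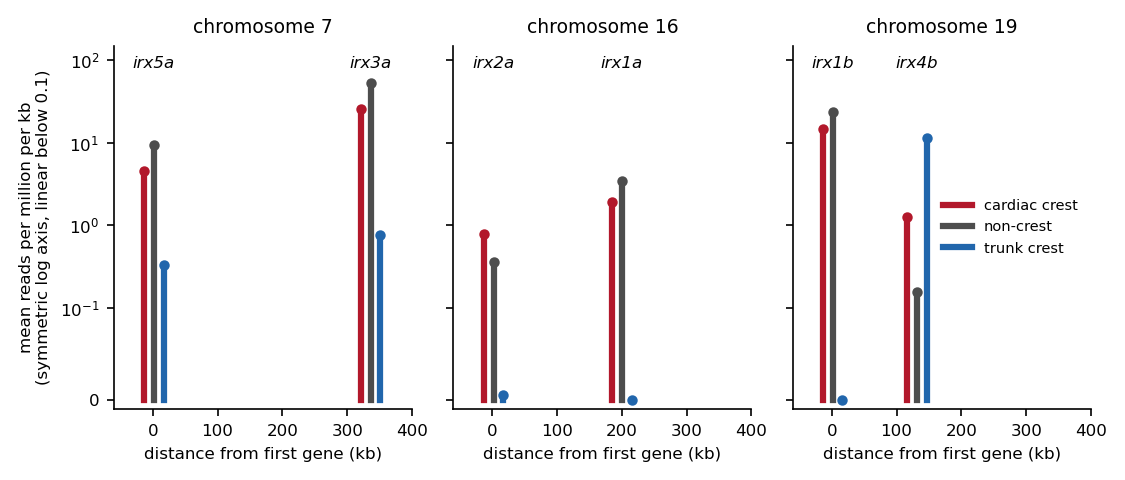
Mean RPM per kb of the neighbouring Iroquois genes on chromosomes 7, 16 and 19 in cardiac crest, non-crest and trunk crest, against distance from the first gene of each pair; the vertical axis is symmetric-logarithmic, linear below 0.1, and the 3 lines of a gene are set side by side. On chromosome 19 irx1b is at 0 in trunk crest, and irx4b, 125 kb away, is at 11.4 RPM per kb.

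Across the 9 libraries the members followed each other to different degrees. Pearson correlations of log2(RPM + 1) over 9 libraries were 1.00 between *irx1a* and *irx1b* and 0.99 between *irx3a* and *irx5a*. Members on different chromosomes were nearly as close. The value was 0.96 for *irx1a* or *irx1b* with *irx3a* or *irx5a*, and 0.89 to 0.95 for *irx7* with these genes. Between *irx2a* and the other members it was 0.53 to 0.76, and 0.65 with its neighbour *irx1a*. *irx4b* ran against the members, from -0.41 with *irx2a* to -0.94 with *irx5a*. The trunk libraries at or near 0 set much of these values, and the points share libraries and depth, so they are a description. Among 12769 genes, those nearest to *irx1a* were *sox19a* (0.996), *irx1b* (0.996) and *egr2b* (0.994), and those nearest to *irx1b* were *ca6* (0.997), *sox19a* (0.997) and *col4a5* (0.996). *sox19a* is a SoxB1 gene of neural progenitors and *egr2b* marks rhombomeres 3 and 5 of the hindbrain. *irx3a* was nearest to *polr3glb* (0.992), *irx5a* (0.987) and *tox* (0.985), and *irx5a* to *tmtc1*, *lgi1a* and *irx3a* (0.987 each). *irx7* was nearest to *fli1a* (0.989), an ETS factor of endothelium and crest, *parapinopsinb* (0.988) and the chemokine gene *cxcl12b* (0.986). The nearest to *irx2a* were *apln* (0.981), *frem2a* (0.968) and *cfap58* (0.956).

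Genes of the tissues in which Iroquois genes are known to act were set beside them. The list counts below are to be read beside the shares of all genes. Against non-crest, edgeR called 1.50% and DESeq2 5.51%, and 10.8% had an unadjusted edgeR p below 0.05. Without replicate 3 of both groups, edgeR called 3.75%. Against trunk crest, limma called 10.7% higher and 12.5% lower in cardiac crest. The medians over all genes were -0.04 against non-crest and 0.14 against trunk crest. Of 20 tested genes of the midbrain-hindbrain boundary and rhombomeres, 0 passed between cardiac crest and non-crest (edgeR), 3 had an unadjusted p below 0.05 and DESeq2 called 0. Their median log2 fold change was -0.04, as over all genes. The most abundant, *mafba*, which patterns rhombomeres 5 and 6 and is also used in crest, had 164, 231 and 140.0 CPM in cardiac crest, against 93.7, 115 and 48.5 CPM in non-crest (log2 difference 1.09 ± 0.34, edgeR adjusted p = 0.244). *egr2b* had 23.7, 40.3 and 44.1 CPM in cardiac crest, against 85.4, 128 and 33.6 CPM in non-crest (log2 difference -1.14, edgeR adjusted p = 0.384).

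The same list differed widely between cardiac and trunk crest. Of its 20 tested genes, 11 were higher in cardiac crest, 1 was lower and 8 did not pass (limma), with a median log2 difference of 3.60 beside 0.14 over all genes. *mafba* averaged 5077 ± 991 scaled reads in cardiac crest, against 10.1 ± 12.2 in trunk crest (SD, n = 3 each, log2 difference 9.77 ± 0.98, limma adjusted p = 2.82e-04). *epha4a*, an Eph receptor of rhombomeres 3 and 5, averaged 1578 ± 641 in cardiac crest, against 17.1 ± 18.1 in trunk crest (6.98 ± 0.82, limma adjusted p = 5.75e-04). The dissected cardiac tissue spans the hindbrain and the trunk tissue does not, and the groups also differ in age, line and reporter. The parts of these in the differences cannot be told apart, here or for the Iroquois genes.

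Neural progenitor genes were read in the mCherry-positive cells too. None of 22 tested genes passed against non-crest (edgeR, 5 at an unadjusted p below 0.05, DESeq2 1 higher and 3 lower), with a median log2 fold change of -0.94. Without replicate 3 of both groups, 1 was higher and 9 were lower, where 3.75% of all genes were called. *sox19a* had 77.1, 125 and 331 CPM in cardiac crest, against 691, 638 and 204 CPM in non-crest. Its extremes fell in replicate 3 of each group, as for *irx3a* (log2 difference -1.47 ± 0.59, edgeR adjusted p = 0.409, and -2.67 with an edgeR adjusted p of 0.00531 without those libraries). Against trunk crest 12 of 22 were higher in cardiac crest, 0 were lower and 10 did not pass (limma), with a median of 4.59. Over all genes, 10.7% were higher and 12.5% lower, with a median of 0.14. *sox1a*, *sox1b*, *sox19a*, *nkx6.1* and *olig2* had 0 reads in all trunk libraries, and *sox19a* was at least 3902-fold higher in cardiac crest. Over the whole list the summed level was 1765 to 3170.3 RPM in cardiac crest, against 702 to 3235 in non-crest and 1897 to 2571 in trunk crest. Most of the trunk sum came from 1 gene, *her9*, a Hairy-related repressor named after its values were seen. Without it the other 21 genes summed to 338, 446 and 845 RPM in cardiac crest, against 1374, 1411 and 463 in non-crest and 23.6, 6.36 and 27 in trunk crest. What part cells with neural transcripts had in the Iroquois values was not tested.

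Placode and ear genes were counted in the same way. None of 13 tested passed against non-crest (edgeR, 2 at an unadjusted p below 0.05, DESeq2 0, median 0.35), and against trunk crest 9 of 14 were higher in cardiac crest, 0 were lower and 5 did not pass (limma, median 4.73). The list summed to 387 to 621 RPM in cardiac crest, against 285 to 552 in non-crest and 50.4 to 131 in trunk crest. Its part in the Iroquois values was not tested either.

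Genes of the arch skeleton and its joints, where *irx7* and *irx5a* are known to act later, gave 0 of 20 calls against non-crest (edgeR, 6 at an unadjusted p below 0.05, DESeq2 1 higher). The median log2 fold change of these 20 genes against non-crest was -0.41. With replicate 3 of both groups left out, 1 was higher and 2 were lower. The gene called higher in both settings was *dlx2a*, a gene of arch-forming crest. It had 862, 627 and 408 CPM in cardiac crest, against 34.3, 9.98 and 0.266 CPM in non-crest. Its log2 difference of 5.54 ± 1.33 did not pass by edgeR (adjusted p = 0.117). The adjusted p was 1.15e-05 by DESeq2, and 0.0102 by edgeR without replicate 3 of both groups. Of 20, 11 were higher in cardiac than in trunk crest, 0 were lower and 9 did not pass (limma, median 3.43). *nkx3.2*, the jaw joint gene, averaged 602 ± 294 scaled reads in cardiac crest, against 4.73 ± 8.2 in trunk crest (log2 difference 7.80 ± 1.06, limma adjusted p = 0.00123). *dlx2a* averaged 18407 ± 7745 scaled reads in cardiac crest, against 97.9 ± 77.9 in trunk crest (7.83 ± 0.61, limma adjusted p = 7.96e-05). Of 10 tested pronephros genes, 0 were higher and 1 was lower in cardiac than in trunk crest, with 9 not passing (limma, median 1.04). These counts are near the shares of all genes, 10.7% higher and 12.5% lower. The pronephros list summed to only 7.61 to 26.4 RPM in cardiac crest, against 5.13 to 6 in trunk crest.

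Among the other TALE homeobox genes, the Meis, Pbx, Pknox and Tgif factors, 0 of 15 passed against non-crest (edgeR, 5 at an unadjusted p below 0.05, DESeq2 1 higher and 1 lower). Against trunk crest 8 of 15 were higher in cardiac crest, 1 was lower and 6 did not pass (limma, median 1.03). *meis1a*, a Hox cofactor, averaged 1785 ± 86.9 scaled reads in cardiac crest, against 106 ± 79.8 in trunk crest (log2 difference 4.49 ± 0.66, limma adjusted p = 0.00186). *meis2b*, of the same family, averaged 5918 ± 769 in cardiac crest, against 703 ± 339 in trunk crest (3.19 ± 0.37, limma adjusted p = 5.16e-04). *pknox1.2* had the opposite pattern, as *irx4b* did, with 225 ± 31.9 in cardiac crest, against 2593 ± 132 in trunk crest (-3.53 ± 0.25, limma adjusted p = 4.70e-05).

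Signals that pattern the posterior midbrain and hindbrain were counted likewise. *wnt1*, *wnt10b*, *fgf3* and *fgf8a* are also in the list of boundary and rhombomere genes, so the counts of these lists share genes. Of 15 Wnt and FGF genes, 0 passed against non-crest (edgeR, 5 at an unadjusted p below 0.05, DESeq2 2 higher), and 9 were higher and 0 lower in cardiac than in trunk crest, with 6 not passing (limma, median 1.54). Of 13 retinoic acid genes, 1 was higher in cardiac crest than in non-crest, the receptor gene *rxraa*, with 194 ± 75.6 CPM in cardiac crest, against 45.3 ± 10.2 CPM in non-crest (log2 difference 2.11 ± 0.36, edgeR adjusted p = 0.0311). That call was lost without any single library but cardiac crest replicate 3 (edgeR adjusted p of 0.0507 to 0.156). With replicate 3 of both groups left out, 1 of the 13 was higher and 3 were lower than in non-crest. With all libraries, 4 had an unadjusted edgeR p below 0.05, and DESeq2 called 1 higher and 2 lower. Their median log2 fold change against non-crest was -0.88. Of the 13, 8 were higher in cardiac than in trunk crest, 0 were lower and 5 did not pass (limma, median 2.07). *aldh1a2*, the enzyme that makes retinoic acid in the somites, averaged 364 ± 181 scaled reads in cardiac crest, against 48.3 ± 73 in trunk crest (4.15 ± 1.11, limma adjusted p = 0.0277). Its call was lost without each cardiac crest library and without trunk crest replicate 2 or 3 (limma adjusted p of 0.0532 to 0.107), and by edgeR on recovered reads (0.0958). Beside non-crest, *aldh1a2* was lower in cardiac crest, with 5.44, 15 and 18.2 CPM against 50.1, 33 and 164 CPM. That log2 difference of -2.81 did not pass (edgeR adjusted p = 0.166).

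**Figure D5:**
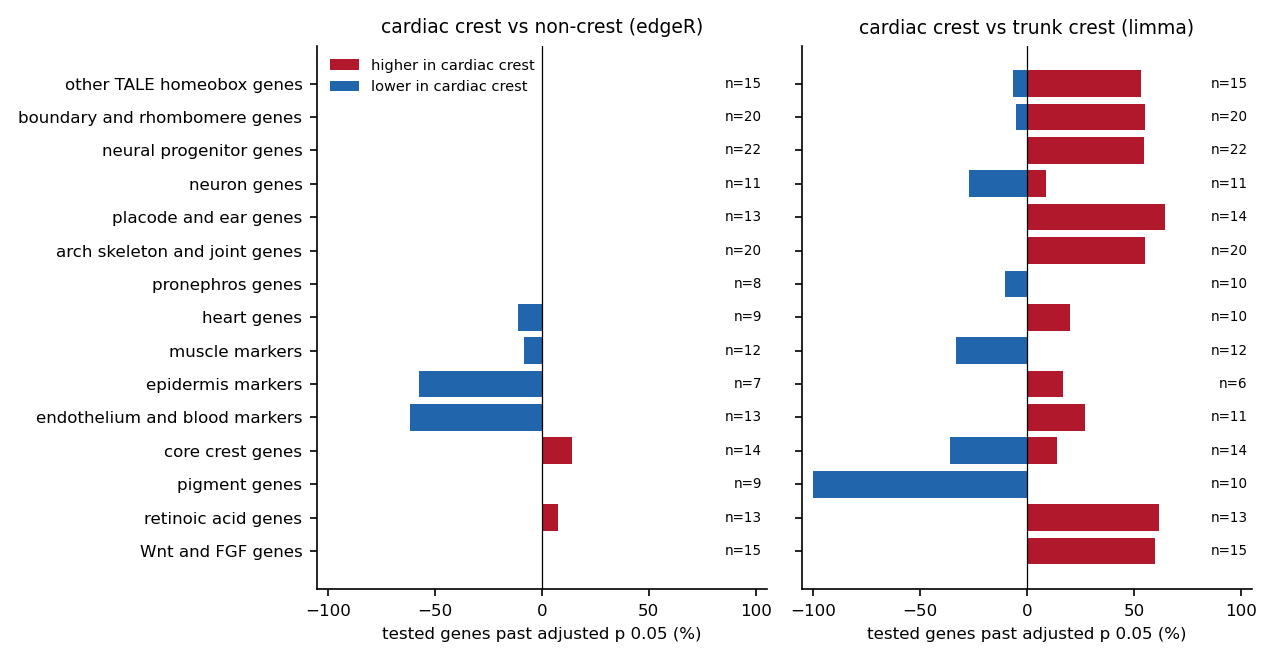
Percent of tested genes in each list with an adjusted p below 0.05, higher (red, right) or lower (blue, left) in cardiac crest, against non-crest (left panel, edgeR) and against trunk crest (right panel, limma), with the number tested. Boundary and rhombomere, neural progenitor, placode and arch lists have 0 calls against non-crest and 9 to 12 genes each higher than in trunk crest.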

How the data were processed

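The submitters' processing notes name Bowtie2, the build GRCz10, featureCounts of Subread, and DESeq with no version. The deposited count table held raw read counts of cardiac crest and non-crest libraries over gene bodies of Ensembl release 80, made with featureCounts version 1.5.1, with its paired-end option and no strand option, per the file headers. The labels' protocols give single-end reads. The name of that deposited table carries 20 somites and the labels 16, and the labels were followed. The second deposited table, of cardiac and trunk crest, held a normalised signal, reads divided by a size factor per library. Division by the smallest non-zero value recovered whole reads for 100.0% of values (tolerance 0.02), and they equalled the raw counts in all 3 cardiac crest libraries. It also holds columns that the authors deposited from their own comparison of trunk over cardiac crest, namely log2 fold changes, a test score, p-values and -log10 p values; none of them entered a result.

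For cardiac crest against non-crest the quasi-likelihood test of edgeR 4.0.16 (TMM, default expression filter, robust) was run in R 4.3.3 on 19648 genes. For cardiac crest against trunk crest, limma 3.58.1 was run on log2(value + 1), with trend and robust prior, on 20847 genes without a filter. The design had named edgeR for that table in case it held counts. The pseudocount of 1 shrinks differences of low genes. Adjusted p-values (Benjamini-Hochberg over all genes) below 0.05 counted as calls. The SE against non-crest was derived from the log2 difference and the F of the test. DESeq2 1.42.0, edgeR on recovered reads (4546 genes called), other normalisations, filters and pseudocounts, a replicate block and omitted libraries were alternatives. The edgeR and limma fits were tested on simulated data whose changes were larger than those of the members against non-crest. No simulated library was made to stand apart as replicate 3 did, so such data were not covered.

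Sample groups followed the labels. The Iroquois genes and the gene lists were chosen with earlier results of these data known. Per list, up to 4 called genes with the largest change at 10 CPM or 10 scaled reads and non-overlapping libraries were eligible for naming, or the most abundant where none was called; *egr2b* was named by its likeness to *irx1a*. For each member the 3 genes of highest correlation and the 2 neighbours on each side were eligible. Symbols came from the deposited table for 17643 genes and a reference table for 8806. No genome sequence was used here.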

Additional observations from a re-analysis of the deposited data

How the results depend on the processing

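Against non-crest, 294 genes were called, and 1133 by DESeq2, 752 without replicate 3 of both groups (chosen after seeing the data, 264 of them among the 294) and 93 to 361 when 1 library was left out. The count of the 6 Iroquois genes called was 0 and became 1 without replicate 3 of both groups (*irx3a*), and it was 0 with each single library left out. The log2 fold change of *irx7* was 0.23 with all libraries, ran from -0.19 to 0.51 with 1 left out, and turned negative without cardiac crest replicate 1; the cause was not tested. Against trunk crest, 4829 genes were called (2233 higher and 2596 lower in cardiac crest), 5138 with upper-quartile factors (3053 higher and 2085 lower), and 3205 to 4591 when 1 library was left out. Upper-quartile factors gave a median of all genes of 0.36 on the log2 scale, beside 0.14 with the deposited factors.

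Nothing in the labels says that replicate numbers mark a shared batch, and deviations of same-numbered libraries correlated at 0.0687, 0.0158 and 0.1913 (cardiac crest with non-crest) and 0.0083, 0.0229 and -0.0129 (cardiac with trunk crest). Same-numbered cardiac crest and non-crest libraries do carry consecutive library numbers, whose meaning is not stated. With the replicate block, 284 genes were called against non-crest (221 shared) and 4273 against trunk crest, and 0 of the 6 Iroquois genes were called against non-crest. The call of *rxraa* was lost with it (edgeR adjusted p = 0.0529). The blocked log2 differences against non-crest were -0.82 for *irx1a*, -0.72 for *irx1b* and 2.14 for *irx2a*. They were -1.26 for *irx3a*, -1.10 for *irx5a* and 0.12 for *irx7*. Depth limited *irx2a*, *irx5b* and the genes at 0 in trunk crest, whose folds are bounds or wide intervals. It also limited *irx4b* in non-crest, at 10, 86 and 2 reads.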

Other observations

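Other cell types left marks that differed between the groups. Over all genes, edgeR called 1.50% against non-crest, and 3.75% without replicate 3 of both groups. DESeq2 called 5.51% against non-crest. Against trunk crest, limma called 10.7% higher and 12.5% lower in cardiac crest. Epidermis markers summed to 607 to 615 RPM in cardiac crest, against 6371 to 16157 in non-crest, and 4 of 7 tested were lower in cardiac crest (edgeR). *krt5*, a basal keratin gene, averaged 4.6 ± 0.685 CPM in cardiac crest, against 939 ± 209 CPM in non-crest (log2 difference -7.68 ± 0.41, edgeR adjusted p = 5.28e-04). Endothelium and blood markers summed to 106 to 114 RPM in cardiac crest, against 686 to 1475 in non-crest, with 8 of 13 lower in cardiac crest. All 10 pigment genes tested were lower in cardiac crest than in trunk crest (limma), at 44.2 to 55.8 RPM in cardiac crest against 44459 to 49174 in trunk crest. Of 14 core crest genes, 2 were higher and 5 lower in cardiac than in trunk crest. Of 9 heart genes tested, 1 was lower in cardiac crest than in non-crest, and of 12 muscle markers 1 was (edgeR). Without replicate 3 of both groups, 3 of the 9 heart genes and 12 of the 12 muscle markers were lower (edgeR). So were 6 of the 7 epidermis markers and 9 of the 13 endothelium and blood markers. Cardiac crest replicate 3 was singled out by its muscle markers, so the muscle count follows from leaving it out and is not a result. Of 11 neuron genes 0 passed against non-crest (edgeR, 0 at an unadjusted p below 0.05, DESeq2 0), and 1 was higher and 3 were lower in cardiac than in trunk crest.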
